A study of Homo sapiens with 8 samples.

Results

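Neuroendocrine differentiation is one route by which a lung adenocarcinoma can change its identity, and 9 genes that mark the neuroendocrine state were followed here through islands of 2 histone marks: the transcription factors INSM1 and POU3F2, the granins CHGA, CHGB and SCG3, the peptide precursors CALCA and GRP, and the surface proteins NCAM1 and DLL3. They were listed by name and not by a rule on their island values, although earlier results of these data were known. They were 9 of 20136 protein-coding genes on chromosomes 1 to 22, X and Y. The region of each gene was the annotated gene body plus 2 kb upstream (GENCODE, GRCh37). Data came from 8 ChIP-seq libraries of PC9, an established human line of lung adenocarcinoma. For H3K27me3 and for H3K4me3 there were 2 libraries from cells that received DMSO and 2 from cells that received GSK126, an EZH2 inhibitor, at 1 μM for 5 days, and every reaction also held D. melanogaster chromatin as a spike-in. All groups were 1 cell line grown in culture, so the data describe no tumour or tissue.

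H3K27me3 is written by EZH2, the catalytic subunit of Polycomb repressive complex 2, and is found on silenced genes, many of them regulators of other cell lineages. H3K4me3 sits at the starts of active genes and of genes that are silent but poised, and in the latter it can lie together with H3K27me3. Neuroendocrine cells store peptides in dense-core granules, and EGFR-mutant lung adenocarcinomas can transform into neuroendocrine carcinoma.

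The authors deposited islands, which are regions of joined 200 bp windows with more tags than a random background gives, each called by SICER in a single library. There were 14 lists. In the standard lists both treatments of a replicate held the same number of human tags. In the spike-in lists DMSO kept all of its tags, and GSK126 was reduced by a factor taken from D. melanogaster tags. The density of tags behind each list was read from the scores of its shortest islands. In the H3K27me3 spike-in lists it was 1.65 and 2.33 tags per window with DMSO (replicates 1 and 2) and 0.382 and 0.455 with GSK126, or 23.1% and 19.6% of DMSO. In the standard lists it was 1.36 and 1.55 with both treatments. For H3K4me3, replicate 2 was much shallower than replicate 1 (0.302 against 1.77 tags per window with DMSO). Starts of 5 of 6 epithelial genes (CDH1, KRT7, KRT8, KRT18 and KRT19) lay under H3K4me3 in all 6 lists of that mark, EPCAM in 3, and none of the 6 genes had an H3K27me3 island. By contrast, the starts of the lung lineage genes NAPSA and SFTPB lay under H3K4me3 in 0 lists and that of NKX2-1 in 3, while no blood or mesenchymal marker of 6 had its start under H3K4me3 in all 6 lists. For 2 pairs of libraries the smallest p an exact sign-flip test allows is 0.5. Therefore no p-value is given, and values are shown for each replicate. An island lost from every cell and one lost from part of the cells cannot be told apart.

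With DMSO, the members fell into those with H3K27me3 over the start, those with the mark elsewhere and those with almost none. The start lay in an island of both spike-in DMSO lists for 5 of 9 members (CHGA, CHGB, POU3F2, GRP and DLL3), whereas 14.9% of all genes met this criterion. In the GSK126 spike-in lists 3 members did (CHGB, GRP and DLL3), with 6.98% of all genes. The standard lists gave 5 members with DMSO (13.7% of all genes) and 4 with GSK126 (11.3%), CHGA being the one that was under an island in only 1 of the 2 GSK126 lists. DLL3, GRP, CHGB and NCAM1 had an island somewhere in their region in all 8 H3K27me3 lists, that is 4 of 9 members and 15.4% of all genes. For H3K4me3, the start lay in an island of both DMSO replicates for NCAM1 and POU3F2, and 55.8% of all genes. With GSK126 this held for POU3F2 alone in both replicates, with 55.5% of all genes in the standard and 55.0% in the spike-in lists.

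**Figure D1:**
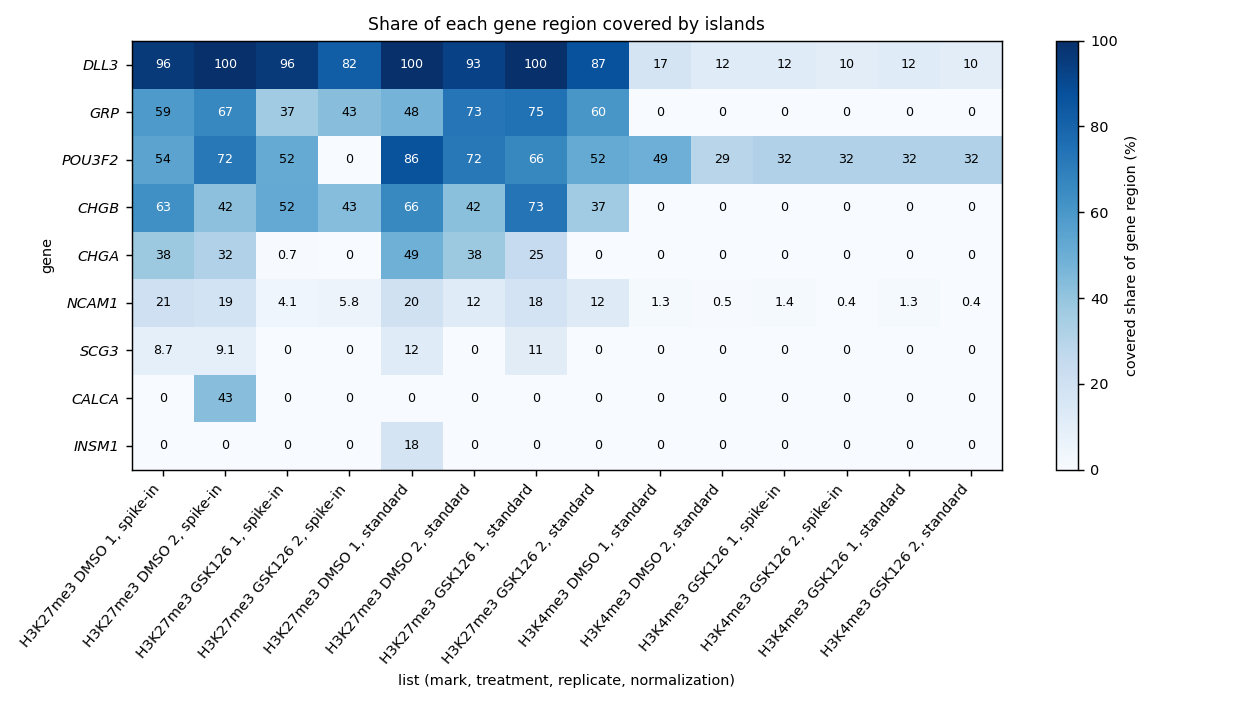
Share of each gene region covered by islands (color, and the number in each cell, in %) for the 9 genes (vertical axis) in the 14 lists (horizontal axis, named by mark, treatment, replicate and normalization). DLL3 stayed between 82.2% and 100% in all 8 H3K27me3 lists, and H3K4me3 was found over DLL3, POU3F2 and NCAM1 only.

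Sequences before the start were available from RefSeq (GRCh38.p14) for 5 members, CHGA, POU3F2, GRP, CALCA and SCG3. The 250 bases upstream are shown for CHGA, POU3F2 and GRP, whose starts lay in H3K27me3 islands with DMSO, and for SCG3, whose start lay in no island of either mark. They are written 5′ to 3′ on the strand of the gene with each CG dinucleotide in capitals, since Polycomb-marked starts are often rich in CG. The regions are chr14:92922900-92923149 (+) for CHGA, chr6:98834324-98834573 (+) for POU3F2, chr18:59219908-59220157 (+) for GRP and chr15:51681253-51681502 (+) for SCG3. Positions in this build were not converted to that of the islands.
CHGA: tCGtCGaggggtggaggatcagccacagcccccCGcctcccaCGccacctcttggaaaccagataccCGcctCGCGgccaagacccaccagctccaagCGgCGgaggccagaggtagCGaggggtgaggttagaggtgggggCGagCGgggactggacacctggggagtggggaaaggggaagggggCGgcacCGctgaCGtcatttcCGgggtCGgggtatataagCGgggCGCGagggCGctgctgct
POU3F2: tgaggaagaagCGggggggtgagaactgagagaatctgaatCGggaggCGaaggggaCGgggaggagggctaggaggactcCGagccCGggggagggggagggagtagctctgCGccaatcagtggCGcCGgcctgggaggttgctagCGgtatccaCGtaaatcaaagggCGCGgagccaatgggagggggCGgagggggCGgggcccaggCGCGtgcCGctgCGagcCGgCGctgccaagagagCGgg
GRP: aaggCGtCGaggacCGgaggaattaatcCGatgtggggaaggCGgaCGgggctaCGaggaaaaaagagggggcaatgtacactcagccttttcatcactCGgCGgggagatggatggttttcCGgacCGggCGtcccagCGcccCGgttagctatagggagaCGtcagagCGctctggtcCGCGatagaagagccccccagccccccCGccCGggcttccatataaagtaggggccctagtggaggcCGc
SCG3: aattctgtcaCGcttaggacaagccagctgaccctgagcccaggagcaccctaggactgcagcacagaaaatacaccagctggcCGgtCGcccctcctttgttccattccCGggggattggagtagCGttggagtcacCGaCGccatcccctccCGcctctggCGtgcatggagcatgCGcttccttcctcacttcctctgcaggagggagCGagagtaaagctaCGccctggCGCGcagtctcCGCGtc
These stretches held 21, 22, 21 and 16 CG, respectively. Over 300 bases (250 before the start and 50 after) the counts were 24 for CHGA, 24 for POU3F2, 27 for GRP, 18 for SCG3 and 14 for CALCA. Across 15318 promoters the median was 22. Starts under H3K27me3 alone with DMSO had a median of 11 (quartiles 5 and 26, 1755 promoters), and those under both marks had a median of 29 (413 promoters). The cAMP response element TGACGTCA, which reads the same on both strands, was present in CHGA at 54 bases before the start and in 2.63% of all promoters. The E-box CAGCTG, also the same on both strands, occurred in SCG3 at 226 and 174 bases before the start, and in 17.7% of promoters. CAGCACC, the left part of the element RE1 bound by the neuronal gene repressor REST, was found in SCG3 at 10 bases after the start and in 7.69% of promoters. None of these letters occurred in the 300 bases of POU3F2, GRP or CALCA.

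DLL3 (chr19:39989535-39999121, + strand) encodes an inhibitory ligand of the Notch pathway that is displayed on neuroendocrine lung cancer cells. It was the most fully covered member. With DMSO, H3K27me3 islands covered 96.0% and 100% of its region in the spike-in lists, while with GSK126 they covered 96.0% and 82.2%. The groups overlapped, because the value of replicate 1 was the same with both treatments. At equal tag number, in the standard lists, DMSO gave 100% and 93.1% and GSK126 gave 100% and 87.3%. The length common to all 8 lists was 9.52 kb in 2 blocks, one from 1.53 kb upstream to 2.07 kb downstream of the start and one from 3.67 kb to the end of the gene, and all 9 exons were touched in every list. Its neighbor SELENOV, 6.66 kb away, was never joined to DLL3 by an island. In the spike-in lists SELENOV had 82.6% and 79.6% covered with DMSO, and 0% and 37.2% with GSK126. At equal tag number an island on the SELENOV side was called with both treatments in both replicates. From the DLL3 start it ran from 13.7 to 20.5 kb and from 14.3 to 20.3 kb with DMSO. With GSK126 it ran from 13.5 to 18.7 kb and from 14.7 to 18.3 kb.

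DLL3 also carried H3K4me3, although not at its start. An island of 2.0 kb and 1.4 kb with DMSO and of 1.4 kb and 1.2 kb with GSK126, in either normalization, lay over exons 7 to 9, except in GSK126 replicate 2, where it lay over exons 7 and 8. In the DMSO list of replicate 1 it ran from 7.47 to 9.47 kb after the start. Thus H3K4me3 and H3K27me3 islands shared the 3′ part of DLL3 in every list, and the start was under H3K27me3 alone.

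GRP (chr18:56887390-56898006, + strand) encodes gastrin-releasing peptide, a growth-stimulating peptide of pulmonary neuroendocrine cells. In the spike-in lists its region had a covered share of 58.8% and 66.7% for DMSO, whereas GSK126 gave 36.5% and 42.9%. Both GSK126 values were below both DMSO values. The difference was 23.0 percentage points (SD 1.12, n = 2), more than the spread between replicates. GSK126 minus DMSO was −7.93 points (SD 2.24) with a stricter score threshold and 0 within 2000 bp of the start. The part that remained was around the start: the islands with GSK126 ran from 8.39 and 9.99 kb upstream to 2.61 and 3.41 kb downstream. The island near the 3′ end seen in both DMSO spike-in lists was in neither GSK126 spike-in list. It scored 59.4 and 66.1 with DMSO, where the lowest scores of the lists were 41.3 and 42.7. At equal tag number this 3′ island was called in both GSK126 replicates and in DMSO replicate 2, but not in DMSO replicate 1. The standard lists gave 47.6% and 73.1% for DMSO, 74.6% and 60.4% for GSK126, and the groups overlapped. The next gene, RAX, a homeobox gene 36.3 kb downstream, was not joined to GRP by an island in any list, and had 78.8% and 85.4% covered with DMSO and 30.2% and 28.0% with GSK126 in the spike-in lists. No H3K4me3 island touched GRP, and the nearest one lay between 77.4 and 79.0 kb upstream of the start in the 6 lists.

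CALCA (chr11:14988168-14993900, − strand), which encodes calcitonin and the calcitonin gene-related peptide, differed from GRP. It had an H3K27me3 island in 1 of 8 lists, the spike-in list of DMSO replicate 2, where 42.7% of the region was covered from 2.1 kb upstream to 1.3 kb into the gene. This was the list with the highest tag density. In the same library reduced to the standard tag number the value was 0%, and it was 0% in all other lists. The island reached CALCB, which overlaps CALCA on the opposite strand, so that it cannot be assigned to either gene. H3K4me3 was not called on CALCA.

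**Figure D2:**
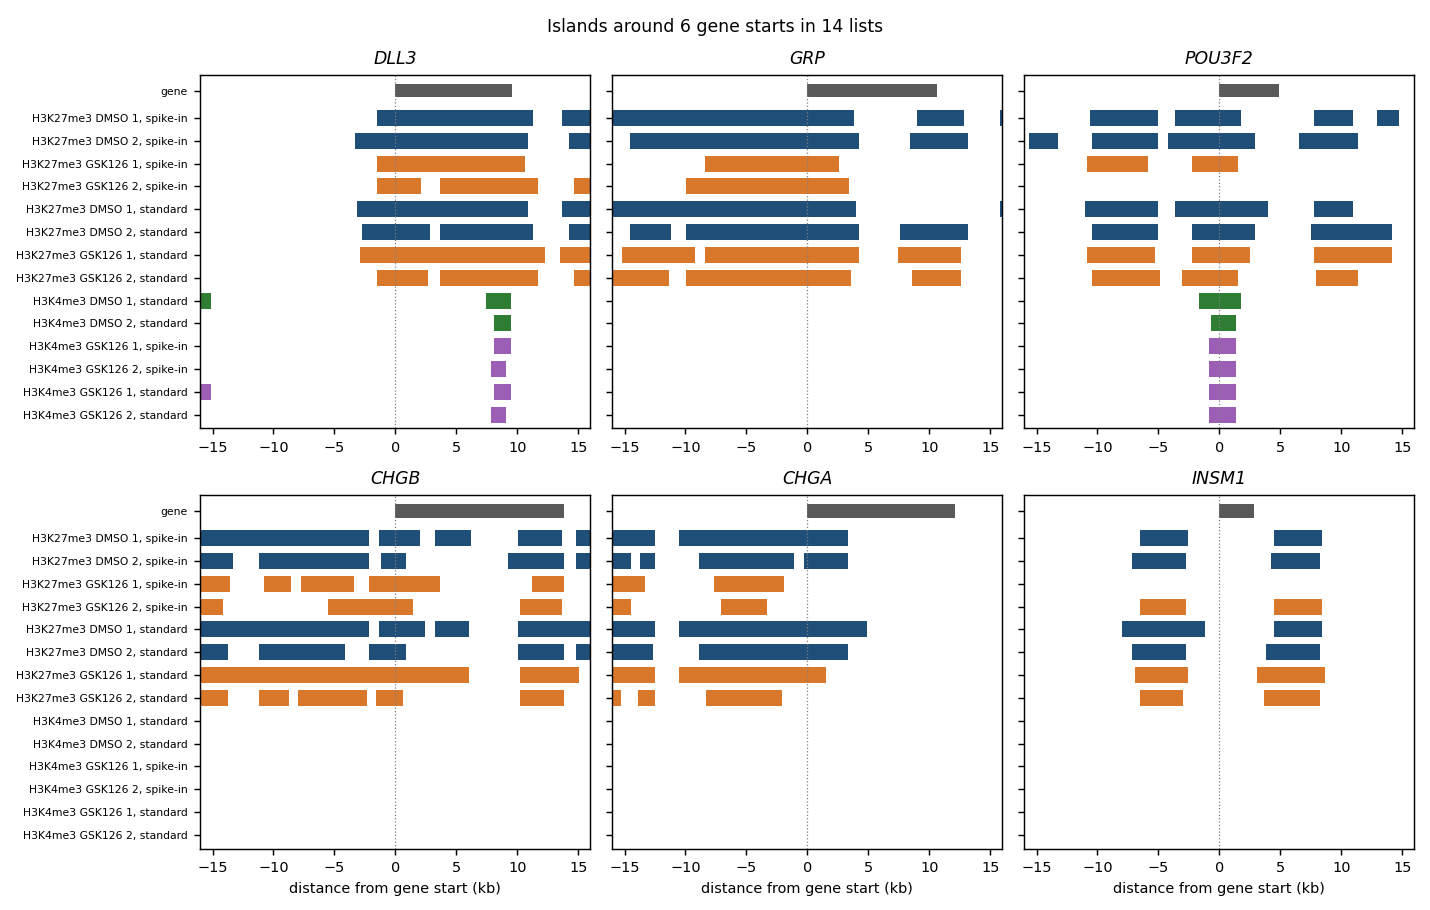
Islands around the starts of DLL3, GRP, POU3F2, CHGB, CHGA and INSM1, with the distance from the gene start in kb in the direction of transcription on the horizontal axis and the 14 lists on the vertical axis (blue, H3K27me3 with DMSO; orange, H3K27me3 with GSK126; green, H3K4me3 with DMSO; purple, H3K4me3 with GSK126; gray, gene). In CHGA the islands with GSK126 end 1.9 kb upstream of the start (spike-in, replicate 1) and 3.3 kb upstream (spike-in, replicate 2), and in INSM1 they lie on both sides of the gene in 3 of 4 lists.

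Among the granins, CHGA (chr14:93389495-93401630, + strand), which encodes chromogranin A of the dense-core granule, was almost without islands in the spike-in lists of GSK126. The covered share was 37.5% and 31.9% with DMSO, and 0.75% and 0% with GSK126. Every GSK126 value was below every DMSO value, with a difference of 34.3 percentage points (SD 3.47, n = 2), whereas GSK126 minus DMSO was −21.6 (SD 21.5) with a stricter score threshold and −88.7 (SD 12.3) within 2000 bp of the start. With DMSO, replicate 1 had one island from 10.5 kb upstream to 3.31 kb downstream of the start, which covered exons 1 and 2, and in replicate 2 a pair of islands spanned nearly the same stretch. With GSK126 the island was confined to the upstream side, from 7.69 to 1.90 kb before the start in replicate 1 and ending 3.30 kb before it in replicate 2. The standard lists of DMSO had 48.9% and 37.5% of CHGA covered and those of GSK126 24.8% and 0%, again without overlap. In this normalization the island of GSK126 replicate 1 reached 1.51 kb past the start, and that of replicate 2 ended 2.10 kb before it. Neither neighboring protein-coding gene shared these islands. H3K4me3 islands were absent from CHGA in all 6 lists, the nearest lying 83.1 to 121.1 kb downstream of the start.

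CHGB (chr20:5892156-5905999, + strand) encodes chromogranin B, a protein of the same granules, and its values were unlike those of CHGA. In the spike-in lists DMSO gave 63.1% and 41.6% and GSK126 gave 52.0% and 43.2%. The shares in the standard lists were 65.6% and 41.9% for DMSO, compared with 73.5% and 36.6% for GSK126. The groups overlapped in both normalizations, and replicate 1 was higher than replicate 2 throughout. Within 2000 bp of the start the spike-in share was higher with GSK126 by 26.1 percentage points (SD 14.1, n = 2), and the standard share differed by 0 (SD 22.8). In the DMSO spike-in lists the start island began 1.36 and 1.16 kb upstream, and another island ended 2.16 kb upstream in both replicates. With GSK126 the start island began 2.16 and 5.56 kb upstream. Over the whole region with a stricter threshold the standard share was higher with GSK126 by 31.1 (SD 26.1). Islands at 2 places were common to all 8 lists, 4.2 kb in total: one around the start (from 1.16 kb upstream to 0.644 kb downstream) and one over the 3′ end (from 11.2 to 13.6 kb). The other island seen in replicate 1 with DMSO, from 3.25 to 6.24 kb, was not found in replicate 2. CHGB had no H3K4me3 island, and the nearest was 36.0 to 38.0 kb downstream of the start.

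SCG3 (chr15:51973689-52013223, + strand) encodes secretogranin III, a granule protein that binds chromogranin A. Its H3K27me3 island was internal. In the spike-in lists it covered 8.67% and 9.15% of the region with DMSO and 0% and 0% with GSK126, a difference of 8.91 percentage points (SD 0.340, n = 2) without overlap between groups. With the score threshold doubled the SCG3 difference was 0, as it was within 2000 bp of the start. In both DMSO lists it began 16.5 kb after the start and it covered exons 9 and 10. Among standard lists the island was called in replicate 1 with both treatments, at 12.0% with DMSO and 11.1% with GSK126, and in replicate 2 with neither. At equal tag number the presence of the SCG3 island thus followed the replicate and not the treatment. No H3K4me3 island lay closer to the start than 53.9 kb.

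Of the transcription factors, POU3F2 (chr6:99282450-99287334, + strand) encodes the neural POU-domain protein also called BRN2 and consists of a single exon. It was the only member whose start lay under both marks in both DMSO replicates, a state found at 2.80% of all genes. H3K27me3 covered 54.5% and 71.9% of the region in the DMSO spike-in lists, and 51.6% and 0% in those of GSK126. The GSK126 values were lower without overlap, but the difference between them was as large as the share itself. Replicate 1 was lower by 2.90 percentage points and replicate 2 by 71.9 (mean 37.4, SD 48.8, n = 2). The island of GSK126 replicate 1 scored 37.8, and the lowest score of its list was 31.6. With a stricter score threshold or a common score floor it was dropped, and GSK126 minus DMSO was −63.2 (SD 12.3). Within 2000 bp of the start that difference was −52.5 (SD 67.2). At equal tag number the shares were 86.4% and 71.9% for DMSO, 66.1% and 51.6% for GSK126, and the difference was 20.3 percentage points in both replicates, whereas GSK126 minus DMSO averaged −46.1 (SD 36.5) with a stricter score threshold and −5.62 (SD 7.95) within 2000 bp of the start.

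H3K4me3 over the POU3F2 start measured 3.4 kb and 2.0 kb with DMSO, and 2.2 kb with GSK126 in both replicates and both normalizations. The groups overlapped, and 2.0 kb were common to all 6 lists. Consequently the start of POU3F2 was under H3K4me3 in all 6 lists and under H3K27me3 in 7 of 8, the exception being the spike-in list of GSK126 replicate 2.

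INSM1 (chr20:20348748-20351593, + strand), a zinc finger factor that drives neuroendocrine differentiation, had neither mark over its body. Its region was touched in 1 of 8 H3K27me3 lists, the standard list of DMSO replicate 1, at 17.6%, by an island that ended 1.15 kb before the start. Instead, islands flanked the gene. In 6 of the other 7 lists the nearest one ended 2.55 to 2.95 kb upstream, just outside the region, and another began 3.05 to 4.45 kb after the start, beyond the end of this 2.85 kb gene. The exception was the GSK126 spike-in list of replicate 1, where the nearest island ended 24.9 kb upstream. Yet no H3K4me3 island was found within 181 kb, so that INSM1 was not under an H3K4me3 island with either treatment. The neighbor CFAP61, upstream of INSM1, reached the same island in the 1 list where the region was touched.

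NCAM1 (chr11:112831997-113149158, + strand) encodes the neural cell adhesion molecule CD56 and is by far the longest member, with a region of 319.2 kb. H3K27me3 covered 20.7% and 18.7% of it in the DMSO spike-in lists (66.2 kb and 59.8 kb), whereas the GSK126 lists had 4.14% and 5.83% (13.2 kb and 18.6 kb). Every GSK126 value was lower, and the difference of 14.7 percentage points (SD 2.61, n = 2) exceeded the spread. GSK126 minus DMSO was −10.1 (SD 1.96) with a stricter score threshold and −37.5 (SD 53.0) within 2000 bp of the start. Standard lists gave 19.7% and 11.9% for DMSO, 18.2% and 12.3% for GSK126, with overlap between the groups and a larger difference between replicates than between treatments. With a stricter threshold the standard share was higher with GSK126 by 3.92 points (SD 1.12).

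The H3K27me3 islands of NCAM1 lay mostly in introns and toward its 3′ end. Between 250 and 300 kb from the start the DMSO spike-in lists held 19.2 kb and 15.4 kb of islands and those of GSK126 held 3.0 kb and 9.0 kb. In the first 50 kb of the gene there was an H3K27me3 island in 1 list, DMSO replicate 1 in the spike-in normalization. This island scored 42.2, and the lowest score of its list was 41.3. It was not called in the standard list of the same library. The spike-in difference within 2000 bp of the NCAM1 start rested on this island alone. In the other lists the island nearest to the start lay outside the gene, 27.2 to 68.6 kb upstream. The stretches present in all 8 lists were short, from 174.8 to 177.2 kb and from 271.4 to 274.4 kb.

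At the NCAM1 start lay H3K4me3. The island there was 2.4 kb and 1.6 kb with DMSO, and 2.2 kb and 1.2 kb with GSK126 in both normalizations. In GSK126 replicate 2 it began 0.004 kb after the annotated base, which is why the start counted as covered in only 1 of 2 replicates, a distance far below the width of a window. A further H3K4me3 island near 228 to 230 kb appeared in all 3 lists of replicate 1 and in none of replicate 2, the shallower one.

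**Figure D3:**
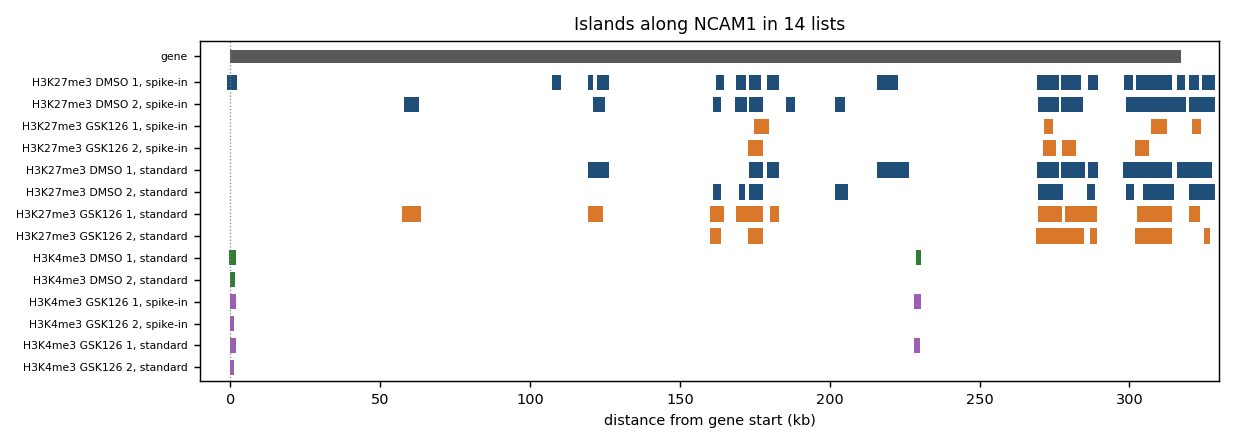
Islands along NCAM1, with the distance from its start in kb on the horizontal axis and the 14 lists on the vertical axis (colors as in the maps of the other starts; gray, gene). H3K4me3 marks the start, and H3K27me3 is concentrated beyond 150 kb, where the GSK126 spike-in lists keep 13.2 kb and 18.6 kb.

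Considering all members in the spike-in lists, both GSK126 values were below both DMSO values for 5 of the 8 members with an island in any of these lists (CHGA, NCAM1, POU3F2, GRP and SCG3). Of 6456 genes with an island, 75.0% met the same criterion, so the share of the members was not above that of other genes. The stricter criterion of at most 0.5 times DMSO in both replicates was met by 3 of the 8 (CHGA, NCAM1 and SCG3) and by 48.6% of all genes. In replicate 1 alone 6 members and 87.5% of all genes were lower, and in replicate 2 alone 7 members and 86.7%. No member was higher without overlap, and only 0.217% of all genes were. For genes with a DMSO island, the GSK126 covered share as a percentage of that in DMSO had a median of 62.2% and 15.6% over the members in replicates 1 and 2, and of 24.4% and 21.1% over all genes. The tag density of the GSK126 lists was also lower, as given above, and its part in these differences was not tested. Covered length summed over the 9 regions was 107.4 kb and 102.9 kb for DMSO but 40.8 kb and 40.4 kb for GSK126, which is −1.37 ± 0.03 on the log2 scale (SD, n = 2). Over all genes the value was −1.06. NCAM1 supplied 66.2 kb and 59.8 kb of the DMSO length and 13.2 kb and 18.6 kb of that with GSK126, and without it the other 8 gave −0.58 and −0.99 in replicates 1 and 2. Of the GSK126 island bases, 90.1% in replicate 1 and 95.4% in replicate 2 lay inside a DMSO island of the same replicate. In the standard lists these shares were 78.7% and 81.4%. Over all genes they were 97.6% and 97.8% in the spike-in and 90.7% and 92.6% in the standard lists.

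**Figure D4:**
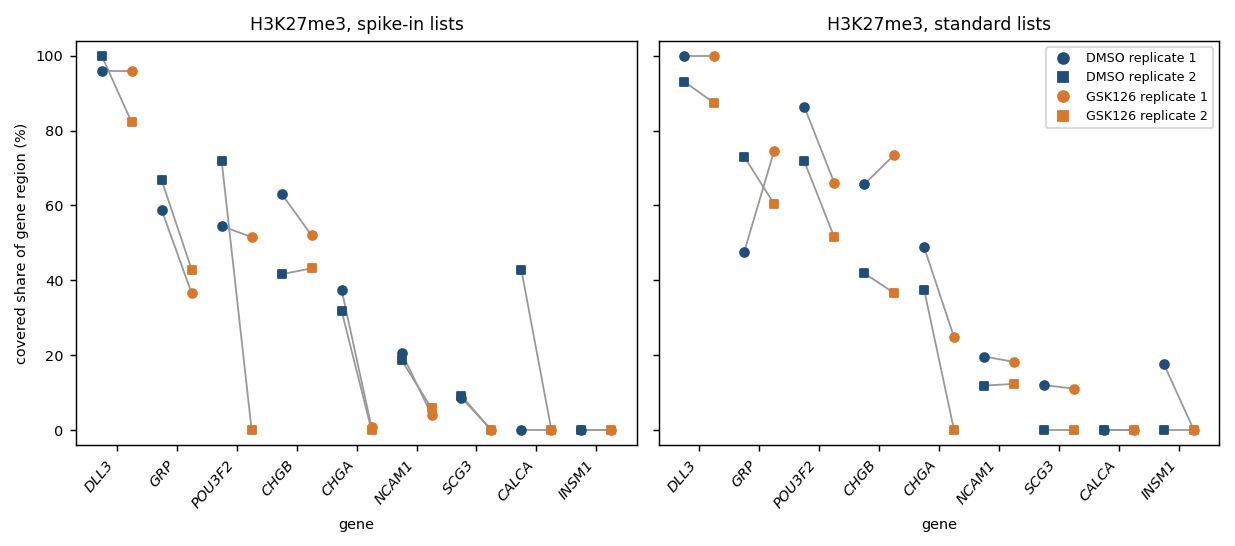
H3K27me3 covered share of each gene region in % (vertical axis) for the 9 genes (horizontal axis), with DMSO in blue on the left of each pair and GSK126 in orange on the right, circles for replicate 1, squares for replicate 2, and gray lines joining the libraries of a replicate. Left, spike-in lists, where CHGA, NCAM1, POU3F2, GRP and SCG3 have both GSK126 points below both DMSO points; right, standard lists, where this holds for CHGA and POU3F2.

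In the standard lists 2 of 8 members (CHGA and POU3F2) were lower with GSK126 without overlap, compared to 36.5% of 6132 genes, none was higher (3.62% of genes), and none was at most 0.5 times DMSO in both replicates (13.1%). In replicate 1 alone 5 members and 60.4% of all genes were lower, and in replicate 2 alone 5 members and 70.6%. The summed length was 109.5 kb and 74.9 kb for DMSO, 103.5 kb and 66.5 kb for GSK126, or −0.13 ± 0.06 on the log2 scale (SD, n = 2), with −0.31 over all genes. For H3K4me3, 0 of the 3 members with an island (NCAM1, POU3F2 and DLL3) were lower without overlap in the spike-in lists, where 1.62% of 14500 genes were, and 0 in the standard lists, where 1.90% were. In either replicate alone 2 of the 3 were lower, in both normalizations, compared to 59.2% and 56.6% of all genes in replicates 1 and 2 of the spike-in lists and 68.7% and 49.3% of the standard lists. Their summed H3K4me3 length was 9.4 kb and 5.0 kb for DMSO, 8.0 kb and 4.6 kb for GSK126 in the spike-in normalization, a log2 ratio of −0.18 ± 0.08 (SD, n = 2), compared to −0.17 over all genes. The other 6 members had no H3K4me3 island in any of 6 lists, as did 27.6% of all genes.

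Because covered length does not tell how many tags an island holds, the summed island score was compared where both lists had equal tag numbers, in the standard normalization. The score grows with the excess of tags over background and was summed over all islands at a locus, including those that reach beyond the gene. It could be compared in both replicates for 6 members and for 4286 genes. At this locus GRP was higher with GSK126: its DMSO score of 1606 in replicate 1 stood against 2374, and that of 938 in replicate 2 against 2201 (log2 ratios 0.56 and 1.23). In replicate 1 the locus, set by a DMSO island of 49.6 kb, also held islands outside the gene region. Counting only islands that touch the gene region, GRP had 1606 with DMSO but 1356 with GSK126 in replicate 1, a log2 ratio of −0.24, and replicate 2 stayed at 1.23. DLL3 was higher in both replicates, at 783 against 1126 and 833 against 1370 (0.52 and 0.72), and these values did not depend on this choice. With GSK126, the total H3K27me3 score of the standard lists was 1.30 and 1.65 times DMSO, and that of DLL3 1.44 and 1.64 times. The median log2 ratio over the 4286 genes was 0.04 and −0.06. The study reported that scaling to equal tag numbers hid the loss of H3K27me3. A higher score here therefore does not tell whether the amount of the mark rose.

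CHGA was lower in both replicates, from 384 to 278 and from 365 to 235 (log2 ratios −0.47 and −0.64), and in replicate 2 the score with GSK126 belonged to islands outside the gene region. NCAM1 was lower by less, from 1248 to 1144 and from 847 to 732 (−0.13 and −0.21). CHGB and POU3F2 had no common direction, at −0.05 and 0.43 for CHGB and 0.03 and −1.24 for POU3F2. With only the islands that touch its region, CHGB was higher in both replicates (0.53 and 0.43). INSM1 and SCG3 had a score in replicate 1 alone, where the DMSO and GSK126 scores were 173 and 135 for INSM1, 70.6 and 81.4 for SCG3. CALCA had none.

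Scores higher in both replicates over the whole locus were found in 2 of 6 members (GRP and DLL3) and 42.3% of all genes, and scores lower in both in 2 of 6 (CHGA and NCAM1) and 41.6%. The direction varied with the level. When genes were divided into 4 equal classes by their DMSO score, 25.0%, 25.4%, 42.7% and 76.2% were higher in both replicates, from the lowest class to the highest. POU3F2 was in class 1, CHGA and CHGB in class 2, and GRP, DLL3 and NCAM1 in class 3. The DMSO scores that define the classes also enter the ratios. For H3K4me3, POU3F2 was higher in both replicates (464 and 474, 149 and 172, for DMSO and GSK126 in replicates 1 and 2), which 27.4% of all genes were (26.4% were lower in both), whereas NCAM1 and DLL3 went in opposite directions in the 2 replicates.

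**Figure D5:**
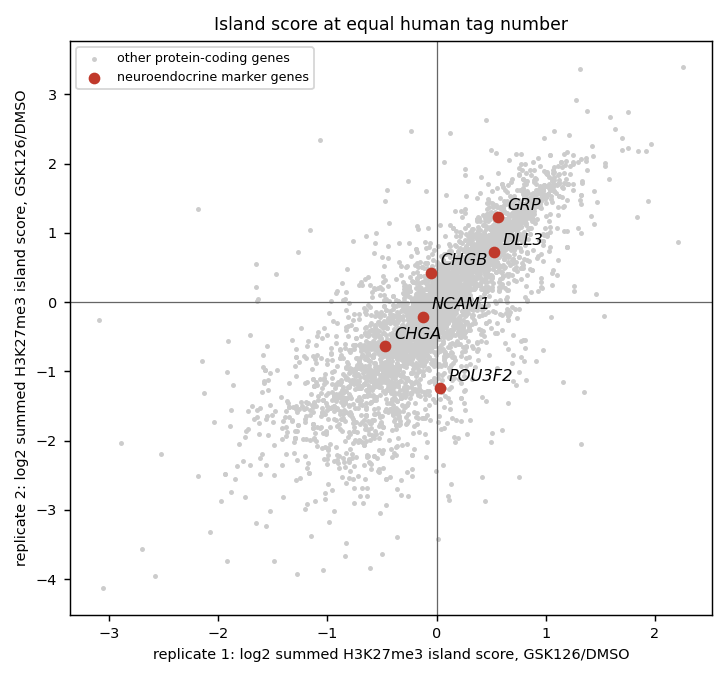
Log2 ratio of the summed H3K27me3 island score, GSK126 over DMSO, at equal human tag number, for replicate 1 (horizontal axis) and replicate 2 (vertical axis). Gray points are 4286 genes with a score in all 4 standard lists and red points the 6 members among them; GRP and DLL3 lie above 0 in both replicates, CHGA and NCAM1 below 0 in both.

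Other genes of the neuroendocrine program were examined for the same measure in the H3K27me3 spike-in lists. Of 14 genes for vesicles and prohormone processing, 6 had an island and 3 were lower with GSK126 without overlap (SNAP25, PCSK2 and DDC), whereas PCSK1, VGF and ENO2 overlapped. Of 12 peptide genes 8 had an island and 6 were lower, GAL and CCK being the exceptions. An example is somatostatin (SST), which was at 100% and 100% with DMSO and at 68.4% and 91.4% with GSK126. In the standard lists SST was at 100% in both replicates with either treatment. Of 10 transcription regulators 6 had an island and 5 were lower, NKX2-2 being the exception. NEUROD1, a factor of neuronal subtypes, had 36.7% and 36.7% covered with DMSO and 17.6% and 12.1% with GSK126. Its standard lists went the other way in both replicates, with 24.3% and 35.3% for DMSO and 34.1% and 40.8% for GSK126. REST had no H3K27me3 island, and its start was under H3K4me3 in all 6 lists. Of 9 Notch genes 3 had an island and were lower (DLL1, DLL4 and JAG2), DLL4 having 90.9% and 92.6% with DMSO and 31.2% and 31.2% with GSK126. At equal tag number DLL4 was higher with GSK126 in both replicates, at 85.8% and 78.9% for DMSO and 90.9% and 80.6% for GSK126. None of the genes in these 4 lists was higher without overlap. The share of genes with an island that were lower is to be read beside the 75.0% of all genes in the spike-in lists. In the standard lists 1 of 6, 0 of 7, 2 of 5 and 1 of 3 genes with an island were lower, in the same order. There the share of all genes was 36.5%.

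Finally, for each member covered in at least 4 lists, the gene on another chromosome with the most similar coverage was found, by Euclidean distance over the 14 covered shares in percentage points. NCAM1 was closest to TCP10L (distance 5.31), SCG3 to LGSN (5.94), CHGA to KLRG2 (13.4), GRP to ACTL6B (16.5), DLL3 to LMO2 (18.4) and CHGB to KRTAP10-8 (23.9). POU3F2 had no near match, as the closest gene, SECTM1, was at a distance of 47.8, and the reason was not tested.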

How the data were processed

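The files were lists of islands in BED form, 1 or 2 per library, with a start, an end and a score deposited for each island. Per the study's methods and the file names, the authors aligned 50-nt tags to hg19 with BWA (SAMtools 0.1.18 is given in the submitters' processing notes), removed human tags at random for the standard or the spike-in normalization, and ran SICER on each library with windows of 200 bp, gaps of 600 bp (H3K27me3) or 200 bp (H3K4me3) and an E-value of 1. The H3K4me3 DMSO libraries had 1 list each, used for both normalizations. The labels give antibody and treatment but no replicate numbers. Libraries were paired within a replicate as the study names them, because tags were removed within a replicate.

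Covered lengths, start overlaps and summed scores were obtained in Python 3.11.15 (NumPy 2.4.6) over genes of GENCODE 44 mapped to GRCh37. Tag densities were fitted with SciPy 1.17.1, and plots drawn with Matplotlib 3.10.9. The functions for tag density, covered length and summed scores were tested on simulated islands or scores, and the other steps were not. Scores were compared only between lists of equal tag number. The lists hold no tag counts, so no counting interval was computed. The members and gene lists were chosen with earlier results of these data known. All members were named, as were exceptions of each gene list, neighbors sharing an island, and the most similar gene. RAX, SELENOV, SST, NEUROD1 and DLL4 were named after their values were seen. Alternatives were a stricter score threshold, a common score floor, a minimum island length, other gene regions, other criteria, the DMSO standard lists, leaving out NCAM1, leaving out a replicate and leaving out the pairing. A gene of the list of transcription regulators is not reported here.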

Additional observations from a re-analysis of the deposited data

How the results depend on the processing

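The summed H3K27me3 length of the members in the spike-in lists was lower with GSK126 under all 11 alternatives. Its log2 ratio was −1.40 with a stricter score threshold, −1.60 with a common score floor, −1.48 for the gene body alone, −1.26 with 5000 bp upstream, −0.71 for 2000 bp either side of the start, −1.16 against the DMSO standard lists and −0.78 without NCAM1. In the standard lists it was −0.041 with the score floor, −0.28 around the start and −0.25 without NCAM1, and it was reversed, at 0.19, with the stricter threshold; the cause was not tested. For H3K4me3 in the spike-in lists it was −0.27 with the stricter threshold and −0.29 without NCAM1. The number of members lower in H3K27me3 without overlap was 2 around the start and 3 at 0.5 times DMSO in the spike-in lists, and 1 and 0 in the standard lists. In the standard lists the summed score of CHGB was 0.55 with the stricter threshold and that of NCAM1 was reversed, at 0.12; the cause was not tested.

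Leaving out a replicate gave log2 ratios of −1.39 to −1.35 (spike-in) and −0.17 to −0.08 (standard) for H3K27me3, and −0.23 to −0.12 and −0.27 to −0.12 for H3K4me3. The number lower in the remaining replicate, an alternative chosen after seeing the data, was 6 to 7 and 5 to 5 for H3K27me3 and 2 to 2 for H3K4me3 in both normalizations. Without the replicate pairing the 4 log2 ratios were −1.37, −0.12, −0.19 and −0.22, and no direction differed. Counting only islands that touch the gene region, also chosen after seeing the data, left the mean score ratio within its spread for the 5 members it could be computed for, although GRP in replicate 1 turned to −0.24. What depth cost each list was not tested, and CALCA was called only in the H3K27me3 list of highest tag density.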
